A study of Homo sapiens with 3 samples.

Results

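The annexins are a gene family of calcium-dependent membrane-binding proteins, and 10 of the 29960 genes in the deposited table were taken as its members by their symbol: ANXA1, ANXA2, ANXA3, ANXA4, ANXA5, ANXA6, ANXA7, ANXA9, ANXA10 and ANXA11. All 10 passed the filter on low counts, which kept 15643 genes. The family was chosen by the reads and group means of ANXA6, known from earlier results to be nearly lost in gemcitabine-resistant cells, so the difference between resistant and parental cells is described for the members and was not tested. RNA came from 5637, an established line of human bladder cancer, as the parental line (Parental 1, genotype given as WT) and as its gemcitabine-resistant derivative (Resistant 1 and Resistant 2, genotype given as Gemcitabine Resistant). All 3 libraries were labelled as untreated and all cells were grown in RPMI medium with 10% fetal bovine serum. The labels describe the derivative as made by acute gemcitabine treatment, whereas the study's text describes continuous exposure and single-cell clones. The study sequenced independent single-cell clones of each line, so a library descends from 1 cell. With 1 parental library, the spread among parental clones could not be measured, and the authors' group means, which also cover libraries not analysed here, carry no error.

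Annexins share a core of conserved repeats that binds acidic phospholipids when calcium is present, and they differ in their N-terminal tails, which bind partners such as S100 proteins. They act in membrane organization and repair, in endocytosis and exocytosis, and in the control of inflammation. ANXA6 is set apart by a duplicated core. It acts as a scaffold at the plasma membrane and on endosomes and recruits RASA1, a negative regulator of Ras, and the kinase PRKCA. ANXA10 lacks much of the usual calcium-binding sequence and is known from gastric and urothelial epithelium.

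The libraries held 14475531 reads on genes in Parental 1, 15836788 in Resistant 1 and 17461941 in Resistant 2. Counts are given as reads or as CPM, which are reads scaled to one common library size with TMM factors, and 3 reads, the floor used here, correspond to 0.173 to 0.213 CPM. Of 13 urothelial and epithelial markers, 8 were above 3 reads in every library, including EPCAM, CDH1, KRT7, KRT8, KRT18 and KRT19, while KRT20, UPK1A and UPK3A were at 3 reads or fewer in all of them. KRT5 had 272 CPM in Parental 1 but 9.78 and 13.8 CPM in Resistant 1 and Resistant 2, and UPK1B had 74 reads in Parental 1 and 0 in both resistant libraries. By the authors' group means both markers were read in resistant cells. KRT5 was at 11544 normalized counts in the parental and 2047 in the resistant group, and UPK1B at 70.1 and 20.4. Resistant 1 and Resistant 2, with 160 and 240 reads of KRT5, lay far below these resistant means, which include them. The rest of the resistant group therefore lay above those means, and the low levels are shown for these 2 libraries only. The summed FPKM of the epithelial markers was 5389 in Parental 1 and 4320 and 4612 in the resistant libraries. Of 10 fibroblast, immune and endothelial markers found in the table, 5 were at 3 reads or fewer in all libraries, with a summed FPKM over the 10 of 23.2 to 26.1, and COL1A1 and COL1A2, at 61.2 to 113 CPM and 57.8 to 84.0 CPM, were above 3 reads in every library. The part of these marker levels in the results was not tested.

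ANXA6 and ANXA10 were the 2 members that differed by at least 2-fold, in opposite directions. The 250 bases before an annotated start site of each are shown, from RefSeq on GRCh38.p14. Each is on the strand of its gene, with CG dinucleotides in capitals. The ANXA6 stretch is chr5:151157780-151158029 (minus strand) and the ANXA10 stretch is chr4:168092287-168092536 (plus strand).
ANXA6: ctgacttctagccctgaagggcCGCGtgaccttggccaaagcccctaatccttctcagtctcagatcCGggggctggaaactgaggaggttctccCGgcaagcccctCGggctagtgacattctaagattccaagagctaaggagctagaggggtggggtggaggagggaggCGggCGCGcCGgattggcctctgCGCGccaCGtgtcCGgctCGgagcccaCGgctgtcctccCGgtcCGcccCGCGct
ANXA10: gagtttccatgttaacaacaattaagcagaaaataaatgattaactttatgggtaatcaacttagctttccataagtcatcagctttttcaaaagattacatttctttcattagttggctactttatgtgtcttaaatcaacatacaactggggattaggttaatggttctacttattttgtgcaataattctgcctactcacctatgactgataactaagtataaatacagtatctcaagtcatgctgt
The ANXA6 stretch held 19 CG dinucleotides and had a GC content of 65.6%, against 0 CG dinucleotides and 31.2% in the ANXA10 stretch. The median over 35116 RefSeq stretches of this kind was 11 CG. The ANXA6 stretch held 1 CACGTG, found in 6.34% of all stretches, and 1 GC box (GGGCGG, or CCGCCC on the other strand), found in 42.6%. TATAAA, on either strand, occurred in the ANXA10 stretch and in 10.7% of all stretches. RefSeq lists a second ANXA6 start with 10 CG dinucleotides before it, and the count table does not separate the starts. The 10 members matched 14 stretches, and among them only that of ANXA1 had, like ANXA10, no CG. Methylation was not measured.

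ANXA6 (ENSG00000197043, hg19 chromosome 5, 150480273 to 150537443, minus strand) had 156 reads in Parental 1, 4 in Resistant 1 and 8 in Resistant 2, or 11.1, 0.245 and 0.461 CPM. Both resistant libraries were far below the parental library and close to the floor of 3 reads. The 12 resistant reads gave a level 31.1-fold lower than in Parental 1, with an exact 95% counting interval of 17.3 to 61.5. Resistant 1 alone was 45.3-fold and Resistant 2 24.0-fold lower. On the scale of log2(CPM + 0.5), the mean difference of the resistant libraries from Parental 1 was -3.77, and 30 other genes of the 15643 had a difference as low or lower. By the authors' group means, 9 other genes did. In bulk RNA, fewer cells that express a gene and less RNA per cell cannot be told apart. Such intervals cover counting error only and do not describe the spread between clones.

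The authors' group means for ANXA6 were 378.3 normalized counts in the parental and 8.51 in the resistant group, a 44.5-fold lower level and a log2 ratio of -5.32 after a pseudocount of 1. Parental 1 was itself low for its group. Brought to the scale of its group by the median ratio over genes, its 156 reads corresponded to 160 normalized counts, or 0.423 of the authors' parental mean. Resistant 1 stood at 0.419 and Resistant 2 at 0.797 of the authors' resistant mean. The other 9 members in Parental 1 lay between 0.652 (ANXA10) and 1.22 (ANXA9) of their parental means. Of all members, ANXA6 was the one for which the analysed parental library stood farthest below the authors' mean.

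ANXA10 (ENSG00000109511, hg19 chromosome 4, 169013666 to 169108841, plus strand) went the other way. It had 33 reads in Parental 1, 551 in Resistant 1 and 478 in Resistant 2, or 2.34, 33.7 and 27.5 CPM. Both resistant libraries were above the parental library, and the ratio of resistant to parental reads was 13.0, with an exact 95% counting interval of 9.22 to 19.0. The log2 differences were 3.59 and 3.30. By the authors' group means, 51.9 normalized counts for parental and 300.8 for resistant cells, the level was 5.79-fold higher. On the scale of that resistant mean, Resistant 1 stood at 491 and Resistant 2 at 405, or 1.63 and 1.35 of it. Both were above the mean that includes them, so the rest of the resistant group lay below it on average. The clone number in the study's text leaves a single resistant clone beyond these. With equal weights in the mean, that clone lay below the parental mean of 51.9. The 5.79-fold difference therefore does not describe every resistant clone. Parental 1 was at 0.652 of its own mean.

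**Figure D1:**
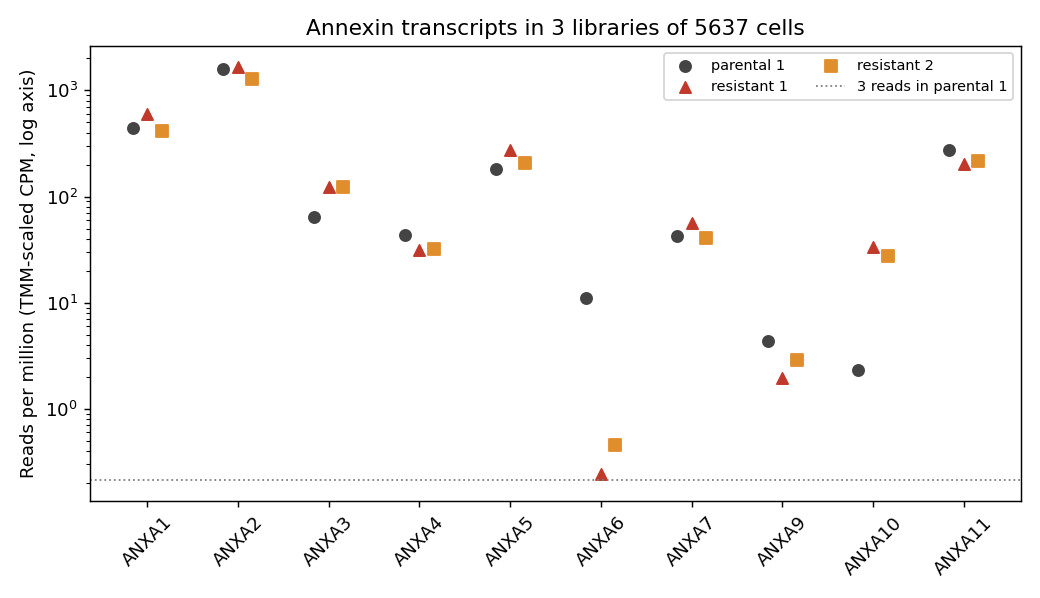
Level of each of the 10 annexins in TMM-scaled CPM (log axis) in Parental 1 (circles), Resistant 1 (triangles) and Resistant 2 (squares), 1 point per library, with a dotted line at 3 reads in Parental 1. ANXA6 was at 11.1 CPM against 0.245 and 0.461 CPM, and ANXA10 at 2.34 CPM against 33.7 and 27.5 CPM. Within each other member the points of the libraries lay closer together than in ANXA6 and ANXA10.

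Across the family, 1 of 10 members was at least 2-fold lower in both resistant libraries, beside 2.55% of all 15643 genes, and 1 of 10 was at least 2-fold higher, beside 2.77% of all genes. Either direction was met by 5.32% of all genes. By the authors' group means the same 2 members were past 2-fold, with 3.28% of all genes lower, 4.19% higher and 7.47% either way. Since the family was chosen with this contrast known, the counts are a description. The 9 relatives of ANXA6 had a median log2 difference of 0.16 by library, against 0.01 over all genes, and 0.10 by the authors' group means. That median was 0.39 in Resistant 1 and -0.09 in Resistant 2, so its direction turned with the library. The log2 difference of ANXA6 minus the median of the 9 was -3.93 by library and -5.42 by the group means. Without ANXA10, the other 8 relatives spanned -0.77 to 0.94 by library and -0.81 to 0.59 by the group means.

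**Figure D2:**
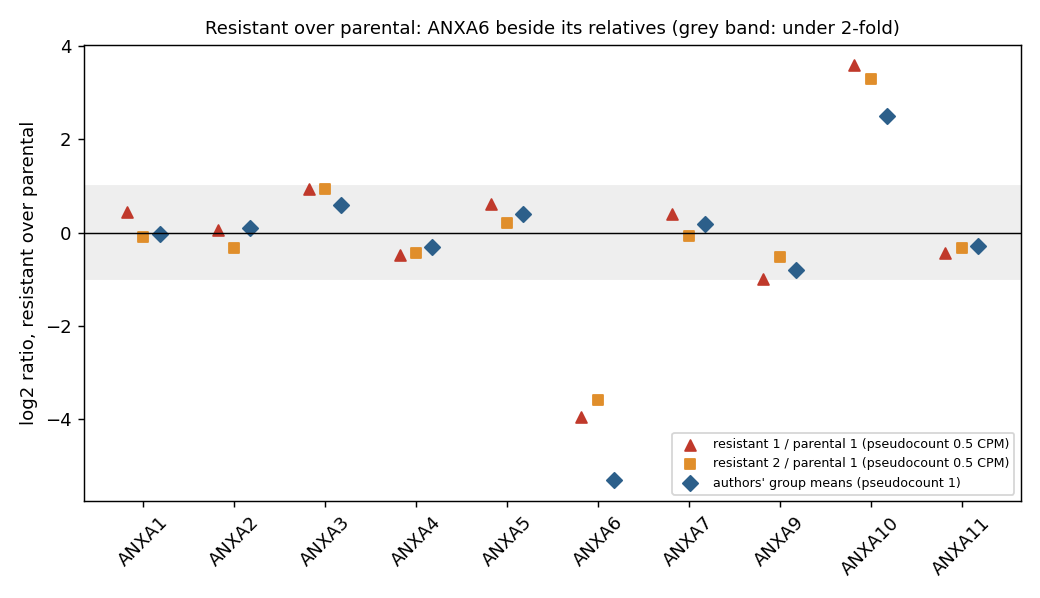
log2 ratio of resistant to parental for each annexin, for Resistant 1 (triangles) and Resistant 2 (squares) over Parental 1 with a pseudocount of 0.5 CPM and for the authors' group means (diamonds) with a pseudocount of 1, the grey band marking less than 2-fold. ANXA6 lies at -3.96, -3.59 and -5.32, ANXA10 at 3.59, 3.30 and 2.51, and the remaining members inside the band.

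ANXA1, ANXA2 and ANXA5 had the highest levels per length (FPKM) of the 10 members in every library. ANXA2 (ENSG00000182718, hg19 chromosome 15, 60639333 to 60695082, minus strand) forms a complex with S100A10 that binds plasminogen and its activator. It had 22597, 27397 and 22235 reads in Parental 1, Resistant 1 and Resistant 2, or 1603, 1675 and 1280 CPM. The resistant libraries lay on both sides of the parental library, with log2 differences of 0.06 and -0.32. ANXA1 (ENSG00000135046, hg19 chromosome 9, 75766673 to 75785309, plus strand), a glucocorticoid-induced protein that signals through formyl peptide receptors, had 439.7 CPM in Parental 1, 598.0 CPM in Resistant 1 and 413.6 CPM in Resistant 2. Its differences were 0.44 and -0.09, again on both sides. ANXA5 (ENSG00000164111, hg19 chromosome 4, 122589110 to 122618268, minus strand), which binds the phosphatidylserine exposed on dying cells, was at 181 CPM and at 275 and 208 CPM, higher in both resistant libraries by 0.60 and 0.20.

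ANXA3 (ENSG00000138772, hg19 chromosome 4, 79472673 to 79531597, plus strand) had the largest difference among the 8 relatives other than ANXA10 by the mean of the libraries, while by the authors' group means ANXA9 did. It had 903 reads in Parental 1, 2020 in Resistant 1 and 2139 in Resistant 2, or 64.1, 123 and 123 CPM. The resistant libraries were nearly equal and both above the parental library, with log2 differences of 0.94 in each and a ratio of reads of 1.92 (exact 95% counting interval 1.79 to 2.07). By the authors' group means, 1036 and 1558 normalized counts, the log2 ratio was smaller, at 0.59. Resistant 1 and Resistant 2 stood at 1.15 and 1.16 of that resistant mean, which includes them. The clone number in the study's text leaves a single further resistant clone. With equal weights in the mean, that clone lay closer to the parental mean of 1036 than to Resistant 1 or Resistant 2. A higher level of ANXA3 is therefore not shown for every resistant clone. ANXA3, ANXA5 and ANXA10 all lie on chromosome 4, whose 584 other expressed genes had a median log2 difference of 0.38.

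ANXA4, ANXA9 and ANXA11 were lower in both resistant libraries. ANXA4 (ENSG00000196975, hg19 chromosome 2, 69947923 to 70053596, plus strand), an annexin of secretory epithelia, had 43.7 CPM in Parental 1, 31.1 CPM in Resistant 1 and 32.2 CPM in Resistant 2, a ratio of reads of 0.725 (exact 95% counting interval 0.656 to 0.802). ANXA11 (ENSG00000122359, hg19 chromosome 10, 81910645 to 81965328, minus strand), which tethers RNA granules to lysosomes, was at 276 CPM and at 205 and 218 CPM, a ratio of 0.766 (0.737 to 0.797). Both genes showed resistant libraries closer to each other than to the parental library. ANXA9 (ENSG00000143412, hg19 chromosome 1, 150954493 to 150968110, plus strand), which like ANXA10 lacks typical calcium-binding sites, was scarce, with 62, 32 and 50 reads, and its log2 differences were -0.996 and -0.54. ANXA7 (ENSG00000138279, hg19 chromosome 10, 75135203 to 75173834, minus strand), described first as synexin for its part in the fusion of secretory granules, had 42.4 CPM in Parental 1, 55.8 CPM in Resistant 1 and 40.4 CPM in Resistant 2, with the resistant values on both sides of the parental one.

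Of the 10 members, 4 were lower in both resistant libraries by any amount, 3 were higher in both and 3 were on both sides. Over all genes, 34.5% were lower in both and 35.2% higher in both.

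Levels of different genes can be compared per length, for which the deposited FPKM, reads scaled to gene length and library total, were used. The order by mean FPKM over the 3 libraries was ANXA2, ANXA1, ANXA5, ANXA3, ANXA11, ANXA7, ANXA10, ANXA4, ANXA9 and ANXA6. The ranges of ANXA3 and ANXA11, of ANXA7 and ANXA10, of ANXA10 and ANXA4, and of ANXA9 and ANXA6 overlapped, so these neighbours in the order were not separated by the spread over libraries. The first 3 places were the same in every library, and ANXA2 was at 442, 490 and 361 FPKM. ANXA6 moved from rank 8 of 10 in Parental 1, at 4.16 FPKM, to rank 10 in both resistant libraries, at 0.0974 and 0.177 FPKM. ANXA10 moved from rank 10, at 1.61 FPKM, to rank 7 in Resistant 1 and rank 6 in Resistant 2, at 24.6 and 19.3 FPKM. The summed FPKM of the 10 members was 833, 1065 and 784 in Parental 1, Resistant 1 and Resistant 2. ANXA6 accounted for 0.499% of it in Parental 1 and for 0.00915% and 0.0225% in the resistant libraries, whereas the share of ANXA10 was 0.193% and then 2.31% and 2.46%.

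The resistant libraries were compared with each other, a difference that played no part in choosing the family. The exact 95% counting interval of the ratio of Resistant 2 to Resistant 1 excluded 1 for 6 of the 10 members, lower in Resistant 2 for 5 and higher for 1, against 59.7% of all genes. Among genes with at least 400 reads in Resistant 1 it did so for 6 of 8 members and for 78.5% of all genes, so the share among annexins was near the background. ANXA1 had the lowest ratio, 0.692 (0.671 to 0.713), followed by ANXA7 at 0.723 (0.654 to 0.799), ANXA5 at 0.756 (0.723 to 0.790) and ANXA2 at 0.764 (0.751 to 0.778). ANXA10 was at 0.817 (0.721 to 0.925) and ANXA11 at 1.07 (1.02 to 1.12). For ANXA3 the ratio was 0.997 (0.938 to 1.06). ANXA6, with 4 and 8 reads, had a ratio of 1.88 with an interval of 0.505 to 8.55, so a difference between the resistant libraries was not detectable at this depth. The median size of the log2 difference between the 2 libraries was 0.38 over the members and 0.34 over all genes.

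**Figure D3:**
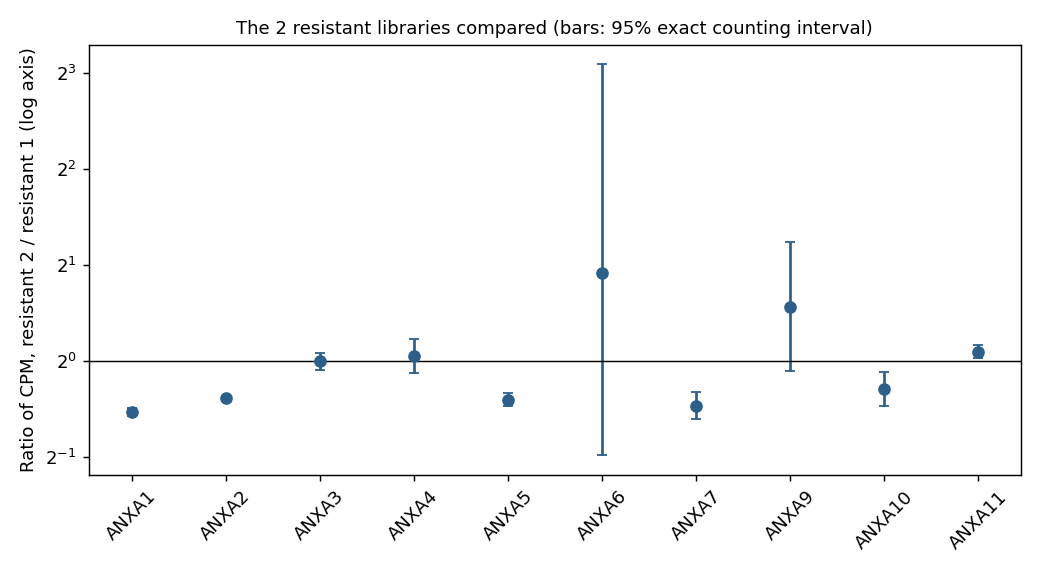
Ratio of CPM in Resistant 2 to Resistant 1 for each annexin (log axis), with bars for the exact 95% counting interval. ANXA1, ANXA2, ANXA5, ANXA7 and ANXA10 lie below 1 and ANXA11 above it with intervals that exclude 1, and the interval of ANXA6 is the widest, from 0.505 to 8.55.

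The surroundings of each member were examined to see whether its difference was shared by neighbouring genes. Within 1 Mb of the start of ANXA6 lay 17 expressed genes, of which 15 were lower in both resistant libraries, against 34.5% of all genes and 57.4% of the 676 other expressed genes of chromosome 5. None of the 17 was higher in both, and all 17 were lower by the authors' group means. Their median log2 difference was -0.69 by library and -0.46 by the group means, and the median of chromosome 5 was -0.29 by library. The difference of ANXA6 minus the median of its neighbours was -3.08. The nearest genes on each side were TNIP1, GPX3 and DCTN4, at -0.48, -0.70 and -0.91, and GM2A, CCDC69 and SLC36A1, at -0.32, -0.59 and -0.69. TNIP1, an inhibitor of NF-kB signalling whose start lies 64.3 kb from that of ANXA6, had 3872, 3267 and 3386 reads. One neighbour was at least 2-fold lower in both resistant libraries: SPARC, a matrix glycoprotein named here after its values were seen. SPARC had 238, 42 and 18 reads and log2 differences of -2.50 and -3.50, at a distance of 529 kb. By the authors' group means more neighbours were past 2-fold lower, beside 3.28% of all genes. These were SPARC, SYNPO, CCDC69 and GPX3, at log2 ratios of -1.97, -1.70, -1.27 and -1.22. DNA copy number was not measured, and the part of a shared shift of this region in the level of ANXA6 was not tested.

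**Figure D4:**
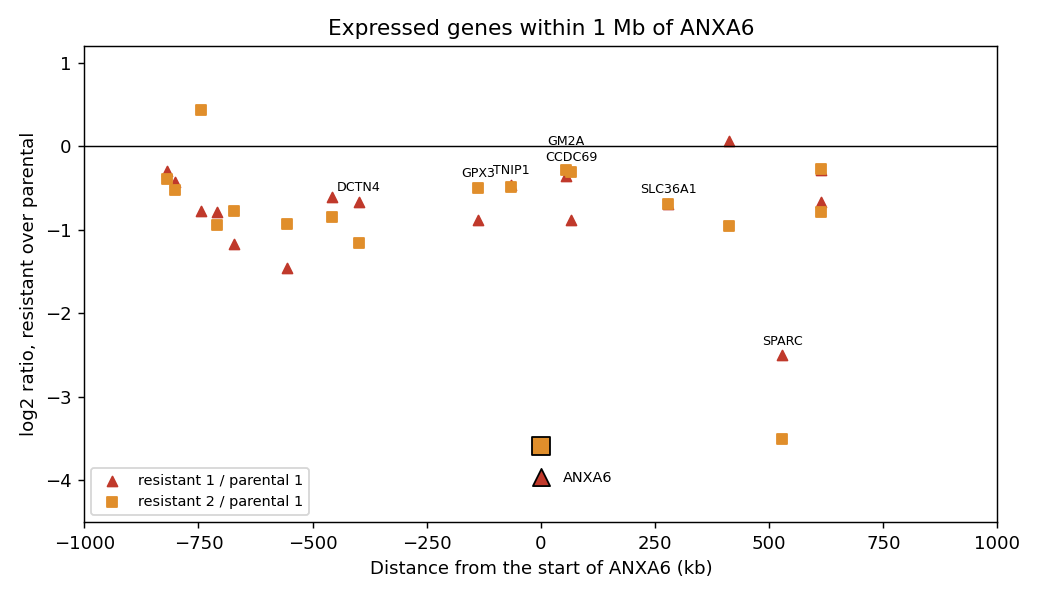
log2 ratio to Parental 1 of the 17 expressed genes within 1 Mb of ANXA6, plotted by the distance of their start from that of ANXA6 in kb, for Resistant 1 (triangles) and Resistant 2 (squares), with ANXA6 outlined. Most neighbours lie below 0, with a median of -0.69, ANXA6 lies at -3.96 and -3.59, and SPARC is the other gene far below the rest.

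Around ANXA10 the neighbours did not share its difference. The 5 expressed genes within 1 Mb had a median log2 difference of -0.27, between -0.69 and 0.40, and ANXA10 lay 3.72 above that median. ANXA3 was 0.68 above the median of its 6 neighbours (0.26) and ANXA5 0.37 above that of its 8 (0.04). For ANXA7 and its 33 neighbours the difference was 0.05. ANXA9 lay 0.90 below the median of its 51 neighbours and ANXA4 0.59 below that of its 18.

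Further annexin rows were outside the member list. ANXA8, ANXA8L1 and ANXA8L2, near-identical copies on chromosome 10 between which reads could be split in an uncertain way, had 9, 350 and 236 reads in Parental 1. Summed over these 3 rows the level was 42.2 CPM in Parental 1 and 23.7 and 29.8 CPM in the resistant libraries, lower in both. ANXA13 had at most 1 read in any library. The pseudogene ANXA2P2, which resembles ANXA2 closely, had 145, 210 and 172 reads, or 0.642%, 0.767% and 0.774% of the reads of ANXA2, and ANXA2P1 and ANXA2P3 had at most 1 read each.

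Partners and neighbours of the annexins in the cell were tested in a fit across all genes (edgeR quasi-likelihood test, Benjamini-Hochberg adjustment), in which the single parental library is assumed to vary like the resistant ones. It called 137 of 15643 genes, or 0.876%, with 0.294% of all tested genes called higher and 0.582% called lower in resistant cells. Of 17 binding partners and effectors, 14 were tested and 0 were called. At an unadjusted p under 0.05 the count was also 0, beside 9.7% of all genes, and by DESeq2 it was 0, beside 1.67% of all genes with an adjusted p. Their median log2 difference was -0.07. RASA1 was at 179 CPM in Parental 1 and 157 and 189 CPM in the resistant libraries, and PRKCA at 66.4 CPM and 52.8 and 57.8 CPM. S100A10, the light chain bound by ANXA2, was at 341 CPM and 279 and 232 CPM, and S100A11, a partner of ANXA1, at 386 CPM and 389 and 302 CPM. The receptors of ANXA1, FPR1 and FPR2, and plasminogen (PLG) had at most 2 reads in any library.

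Of 11 genes of plasma membrane repair, 10 were tested, 1 was called higher and 0 were called lower. The gene called was DYSF (dysferlin, ENSG00000135636, hg19 chromosome 2, 71680852 to 71913898), a ferlin that works with annexins in resealing the membrane. It had 39 reads in Parental 1, 497 in Resistant 1 and 281 in Resistant 2, or 2.77, 30.4 and 16.2 CPM. Both resistant libraries were above the parental library, and the fitted log2 fold change was 3.07 (edgeR quasi-likelihood test, adjusted p = 0.0358). The spread among parental clones behind this p is assumed, not measured. The authors' means for DYSF were 43.0 (parental) and 243.5 (resistant), and the resistant mean includes both libraries. By the median over genes, reads in Resistant 1 and Resistant 2 were 1.12 and 1.18 of the resistant means. On that scale Resistant 1 stood above the resistant mean of DYSF and Resistant 2 close to it. The rest of the resistant group therefore lay below that mean on average. The clone number in the study's text leaves a single further resistant clone. With equal weights in the mean, that clone lay nearer to the parental mean of 43.0 than to either library. A higher level of DYSF in every resistant clone is therefore not shown. MYOF, the other ferlin listed, had 249 CPM in Parental 1, 201 CPM in Resistant 1 and 182 CPM in Resistant 2, and CAPN2, a calpain subunit, at 657 CPM and 1029 and 1160 CPM. Neither of the latter passed the test. TRIM72 had 0 reads in all 3 libraries.

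The genes whose pattern was most like that of ANXA6 were SDR42E1, RP11-336A10.4, CCAT1, TMPRSS3 and RP3-340N1.2, out of 11598 genes with at least 50 reads in Parental 1. Likeness was the Euclidean distance over 3 values, the log2 ratios of Resistant 1 and Resistant 2 to Parental 1 and that of the authors' group means, and ranged from 0.19 for SDR42E1 to 0.78 for RP3-340N1.2. SDR42E1 had 100, 0 and 1 reads in Parental 1, Resistant 1 and Resistant 2, and TMPRSS3 had 88, 0 and 0. Each of the 5 genes had at most 3 reads in either resistant library, fewer than the 4 and 8 of ANXA6, and the pseudocount sets their ratios at that depth.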

How the data were processed

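RNA of 1 parental and 2 gemcitabine-resistant libraries was analysed. The authors deposited raw read counts per gene, FPKM, which equal those counts divided by the deposited gene length and by the library total, and a group signal, the authors' mean of counts divided by a size factor. The submitters' processing notes name CASAVA 1.8 and hg19. The aligner, the counter and the library's strandedness are not given in the sources used here. The 6 columns of libraries without a sample label were not used, nor were the authors' own fold changes, p-values and adjusted p-values.

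Counts were filtered (filterByExpr) and TMM-scaled in edgeR 4.0.16 (R 4.3.3), and log2 differences used a pseudocount of 0.5 CPM, or 1 on group means. The quasi-likelihood test left 1 residual degree of freedom. Counting intervals were exact conditional binomial. The labels do not say whether libraries came from separate cultures. With 1 parental library, p-values rest on the spread between the 2 resistant libraries and on spread shared over genes. Members and lists were chosen with earlier results of these data known. Named were the members, other annexin rows, called list genes and those near 0 reads. The 3 nearest expressed genes on each side of ANXA6 and the 5 most like it were also named. Other list genes, SPARC and SYNPO were named after their values were seen. Neighbours were placed by strand-aware starts in the table's coordinates. Alternatives used DESeq2 1.42.0. The fit and the counting interval were tried on simulated data. The simulated parental library was given the same spread as the resistant ones, so the unmeasured parental spread was not checked. Tables were handled with pandas 2.3.3 and scipy 1.17.1 under Python 3.11.15, and plots drawn with matplotlib 3.10.9.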

Additional observations from a re-analysis of the deposited data

How the results depend on the processing

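The count of 2 members past 2-fold was the same under every scaling, pseudocount and filter tried, without either resistant library and by the authors' group means. Those means include the libraries analysed here, so they are not an independent check. The ANXA6 log2 difference of -3.77 became -4.67 with a pseudocount of 0.1, -2.48 with 2 and -5.32 by the group means, and its distance from the median of the relatives, -3.93, became -4.83, -2.63 and -5.42. The pseudocount of 0.5 CPM is itself above the level of ANXA6 in both resistant libraries. With the parental library replaced by the authors' parental mean on its scale, chosen after seeing the data, the ANXA6 difference was -4.98. Without 1 resistant library it ranged from -3.96 to -3.59, its distance from the relatives from -4.35 to -3.50, and the median of the relatives from -0.09 to 0.39. Of 45 values of the 9 relatives under alternatives that kept all libraries, 35 moved by less than the spread between the resistant libraries and 10 by more, and 2 had the other sign. The median around ANXA6 was -0.64 within 0.5 Mb, -0.52 within 2 Mb and -0.46 by the group means, and -0.69 and -0.67 without 1 resistant library. The 137 genes called by edgeR became 246 by DESeq2, 534 without the filter on low counts and 48 at an adjusted p under 0.01, and the cause was not tested. DYSF was the 1 called repair or partner gene by edgeR with either set of size factors, without the filter and by DESeq2, with adjusted p from 4.9e-06 to 0.0379, but its adjusted p of 0.0358 in the fit reported misses a threshold of 0.01. Leaving out a resistant library leaves 1 against 1, which allows no test. No paired analysis was possible because the labels give no pairing of parental with resistant libraries. With 4 and 8 reads, the depth limits how well the resistant level of ANXA6 is known.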
